A study of Mus musculus with 8 samples.

Results

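Sigirr is represented on these mouse CpG island arrays by 4 oligonucleotide probes, those whose gene name in the scanner files is exactly Sigirr, out of 83122 probes that are not controls, and is 1 of 17021 gene names, pairs of names included. All 4 lie on the first of 2 array designs, which holds 41545 of those probes, and all 4 passed the filter on dim probes that 59516 of the 83122 passed. The gene was chosen by these same values, the P21 over E17.5 signal ratio at its probes, so its own ratios are given below as a description and carry no test.

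The study compared liver DNA of C57BL6/J mice at 2 ages on arrays of methylated fragments. Fetal liver was collected from pregnant females at embryonic day 17.5 (E17.5) and weaning liver on postnatal day 21 (P21), in the morning when the pups were taken from their dams. There was no treatment or mutant allele in either group. Each age had 2 biological replicates, each hybridised to both designs, so that 4 arrays were made. The labels do not say whether DNA of several animals was pooled. On every array the E17.5 DNA carried the green dye Cy3 and the P21 DNA the red dye Cy5. No array had the dyes the other way round, and a dye effect cannot be told apart from age at any probe.

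The method, methylated CpG island amplification on microarrays (MCAM), uses a pair of restriction enzymes that read the same site, of which one is blocked by CpG methylation, and then amplifies the fragments whose ends were methylated. A higher signal therefore stands for more amplified, methylated fragment and is not a percentage of methylation. The liver at E17.5 is still a site of blood formation, while the weanling liver consists largely of hepatocytes, so that a difference between whole livers can come from a change within cells or from a change in which cells are present. Fewer cells carrying a methylated fragment and less methylation per cell cannot be told apart in these samples.

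Sigirr encodes the single immunoglobulin and TIR domain-containing receptor, also called TIR8 or IL-1R8, a membrane protein of the interleukin-1 receptor family. Ligands such as IL-1β, IL-18 and IL-33, and microbial products at the Toll-like receptors, bring together receptor TIR domains that recruit MyD88 and the IRAK kinases and lead to NF-κB and MAP kinase activity. SIGIRR dampens that signal at the level of the receptor and adaptor complex. It is expressed in epithelia, including those of gut and kidney, and in liver.

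The 4 probes lie within 880 bp of chromosome 7, at coordinates taken from the probe names. Their genome build was not given in the sources used here. The scanner files annotate 1 probe as inside the gene (chr7:135496594-135496639) and 3 as promoter probes (chr7:135497180-135497225, chr7:135497308-135497360 and chr7:135497428-135497473). This annotation is present for 3 of the 4 arrays, and for the first design in replicate 2 only. The promoter probes span 294 bp, and 540 bp separate them from the inside probe. Probes no more than 500 bp apart were taken as 1 region, which gives Sigirr an inside region of 1 probe and a promoter region of 3. Whether the 4 probes lie on 1 amplified fragment or on several was not tested, and probes of 1 fragment are not independent measurements.

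Every probe was brighter with E17.5 DNA than with P21 DNA on both arrays. The values are the dye-normalised processed signals of the scanner software, in arbitrary units, and the ratios are log2 of P21 over E17.5, less the median of the array. All 4 probes were well above background in both channels of both arrays, and 0 were saturated.

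At the inside probe the E17.5 signal was 12024 in replicate 1 and 19410 in replicate 2, and the P21 signal was 4716 and 8868. The ages did not overlap: the higher P21 value stayed below the lower E17.5 value. The log2 ratio was -1.35 in replicate 1 and -1.14 in replicate 2, with a mean of -1.25 ± 0.15 (SD, n = 2 arrays), or a 2.37-fold lower signal at P21.

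The first promoter probe had the largest difference. Its E17.5 signals were 19940 and 41585 in replicates 1 and 2, and its P21 signals 5816 and 14604, again without overlap. The log2 ratios were -1.78 and -1.52, with a mean of -1.65 ± 0.18 (SD, n = 2 arrays), or a 3.14-fold lower signal.

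At the second promoter probe the E17.5 signals were 23795 and 61532 and the P21 signals 7984 and 27681. Here the ages overlapped, because the P21 signal of replicate 2 was above the E17.5 signal of replicate 1. Within each array P21 was still the lower of the pair, with log2 ratios of -1.57 and -1.16 and a mean of -1.37 ± 0.29 (SD, n = 2 arrays), the widest spread of the 4 probes.

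The third promoter probe gave 44004 and 82388 at E17.5 and 15205 and 34993 at P21, with no overlap. Its log2 ratios were -1.53 and -1.25, with a mean of -1.39 ± 0.20 (SD, n = 2 arrays), or a 2.62-fold lower signal.

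**Figure D1:**
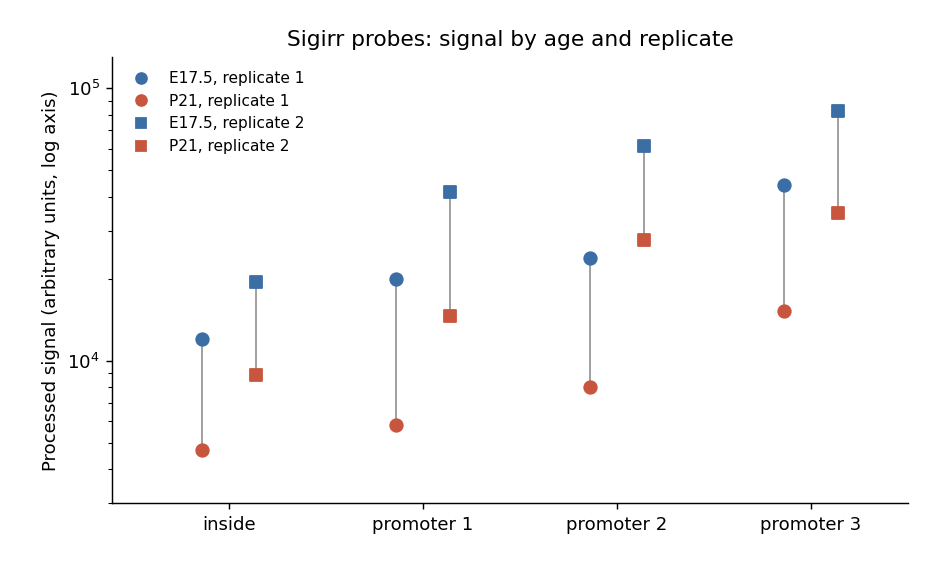
Processed signal (arbitrary units, logarithmic vertical axis) of the 4 Sigirr probes, ordered by position, at E17.5 (blue) and P21 (red) in replicate 1 (circles) and replicate 2 (squares), with a grey line joining the 2 ages of 1 array. The P21 point lies below the E17.5 point on every line, by 2.19-fold to 3.43-fold before centring.

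The 4 probes differed less from each other than from an unchanged ratio. The SD of their log2 ratios was 0.18 on the array of replicate 1 and 0.17 on that of replicate 2, around means of -1.56 and -1.27. In 4 of 4 probes the difference between the ages was smaller in replicate 2, by 0.21 to 0.41 on the log2 scale. The first promoter probe was the lowest on both arrays and the inside probe the highest on both.

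As a region, the 3 promoter probes (chr7:135497180-135497473) averaged -1.63 in replicate 1 and -1.31 in replicate 2. Their mean of -1.47 ± 0.22 (SD, n = 2 arrays) was a 2.77-fold lower signal at P21, against 2.37-fold at the inside region. Counted from the lowest ratio, the promoter region ranked 45 and the inside region 78 of 17617 measured regions. Among the 14183 regions with at least 2 measured probes the promoter region ranked 29. These ranks restate the choice of the gene.

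The direction of these ratios is relative to the other probes of the array. Before the dye factors of the scanner software were applied, the median bright probe of the first design, one of 2543 with all 4 signals at or above the lowest Sigirr signal, read 2.23-fold higher in the red channel than in the green in replicate 1 and 2.28-fold higher in replicate 2. The raw red over green ratio at the Sigirr probes was 0.670 to 0.888 in replicate 1 and 0.829 to 1.1 in replicate 2. In replicate 2 the raw red reading was above the green at 3 of the 4 Sigirr probes, and in replicate 1 at 0 of 4. The inside probe, for example, read 1881 in green and 2069 in red in replicate 2. After normalisation the same 2543 bright probes had median log2 ratios of 0.02 and -0.03, and the Sigirr probes lay below those medians on both arrays.

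The 4 Sigirr probes were each at least 2-fold lower at P21 on both arrays, a class that held 189 of 29838 measured probes of the first design (0.633%) and 407 of 59516 over both designs (0.684%). The contrast is the one that chose the gene, and nothing is read from the count. The class held 31 of the 2543 bright probes (1.22%), 257 of 33186 promoter probes (0.774%) and 122 of 20998 probes inside genes (0.581%). Among 7506 genes with at least 4 measured probes, 2 had every probe in the class (0.0266%): Sigirr, with a mean log2 ratio of -1.41, and Pbld1 on chromosome 10, with a mean of -2.52.

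**Figure D2:**
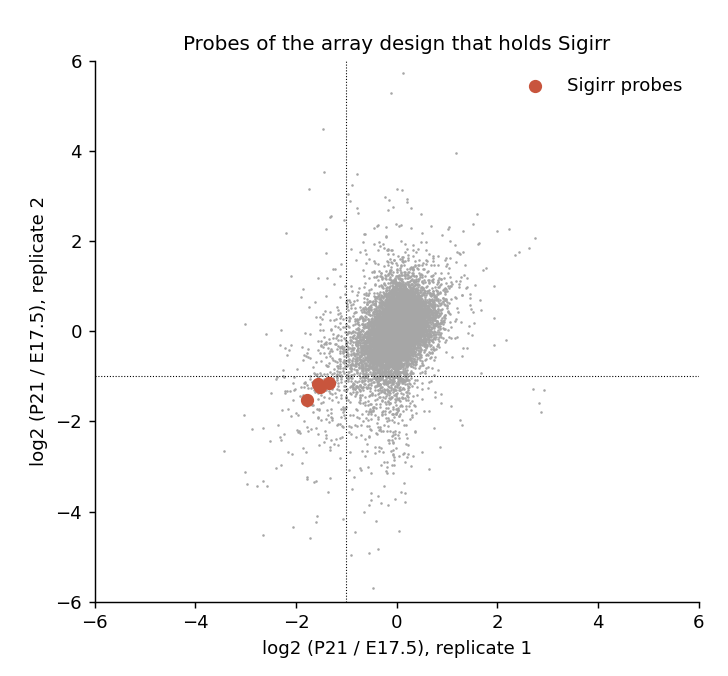
Log2 ratio of P21 over E17.5 in replicate 1 (horizontal) and replicate 2 (vertical) for the 29838 measured probes of the first array design (grey) and the 4 Sigirr probes (red), with dotted lines at -1. The Sigirr probes lie together in the lower left, where both replicates were at least 2-fold lower.

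Of all measured regions, 52 of 17617 (0.295%) were at least 2-fold lower on both arrays and 17 (0.0965%) at least 2-fold higher. The last named autosomal regions inside that limit were those of Fzd6 (-1.48 and -1.02) and Fam184b (-1.01 and -1.09), and the first outside it was that of Pxn (-0.996 and -1.22). Both Sigirr regions lay inside it, and with normexp both left it in replicate 2, at -0.79 for the promoter region and -0.60 for the inside region. With normexp followed by loess both stayed inside it, at -1.63 and -1.39 for the promoter region and -1.33 and -1.12 for the inside region. With 2 arrays for each region, the limma model called 0 of 17617 regions (0%) at a Benjamini-Hochberg adjusted p under 0.05 and a 2-fold difference, and 2077 regions (11.8%) had an unadjusted p under 0.05.

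No neighbouring region had a ratio of the size seen at Sigirr. The nearest probe on the side of Pkp3 lies 14709 bp from the Sigirr probes and the nearest on the side of Ano9 lies 13112 bp away. Within 100 kb lie 37 probes of 8 single genes and of the pair Hras-Lrrc56, which shares a divergent promoter; 33 of these probes were measured, in 9 regions. The limma model called 0 of the 9 (0% of all regions), with adjusted p from 0.386 to 0.768, and 1 of the 9 had an unadjusted p under 0.05 (11.8% of all regions). Of the 9 regions, 7 were above 0 on both arrays (background 32.1%) and 1 was below 0 on both (background 32%), with a median log2 ratio of 0.10.

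In order of position, Ifitm3, an interferon-induced membrane protein that restricts viral entry, had a log2 ratio of 0.26 ± 0.17 (SD, n = 2 arrays, as for all neighbours). BC038881, which had no match in RefSeq and keeps the name of the array design, had 0.05 ± 0.01. Pkp3, a plakophilin of desmosomes, had 0.11 ± 0.07. These 3 genes lie before Sigirr, and their ratios were close to the median of the array.

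After Sigirr, Ano9, a member of the anoctamin family, had a ratio of 0.10 ± 0.01. Ptdss2, a phosphatidylserine synthase, had 0.36 ± 0.11 at its 1-probe region, the one with the unadjusted p of 0.0199 in limma, and 0.46 ± 0.57 at its 2-probe region. Rnh1, the ribonuclease inhibitor, had 0.06 ± 0.002. With background correction by normexp, the signs at Ano9 (-0.23) and at the 1-probe region of Ptdss2 (-0.22) turned, and that at Ano9 was also negative with normexp followed by loess (-0.005). Under the 5 other scalings tried, Ifitm3, BC038881, Pkp3, Rnh1 and the 2-probe region of Ptdss2 stayed between 0.04 and 0.54. The mean of that Ptdss2 region as reported came mainly from replicate 2, at 0.86 against 0.05 in replicate 1.

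The regions of the farthest neighbours, the growth-signalling GTPase gene Hras and Lrrc56, had the only mean ratios below 0 among the 9. With normexp they had -0.04 and -0.08, nearer to 0 than Ano9 and the 1-probe region of Ptdss2. The region of Hras and the Hras-Lrrc56 pair had log2 ratios of 0.003 in replicate 1 and -0.71 in replicate 2, and the region of the pair and Lrrc56 had -0.07 and -0.36. The single Hras probe read -0.29 and -1.53. The low values came from replicate 2, in contrast to Sigirr, where both arrays were low.

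Over the 33 measured neighbour probes the log2 ratio ran from -0.54 to 0.46 in replicate 1 and from -1.78 to 1.58 in replicate 2. None of the 33 was 2-fold lower on both arrays (0.633% of the measured probes of the design were), and 2 were on 1 array. The 4 neighbour probes with all signals at or above the lowest Sigirr signal of 4716, at Ifitm3, BC038881 and the Hras-Lrrc56 pair, had ratios between -0.10 and 0.16. The mean of the Sigirr probes differed from the median of the neighbour probes by -1.61 in replicate 1 and by -1.31 in replicate 2.

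**Figure D3:**
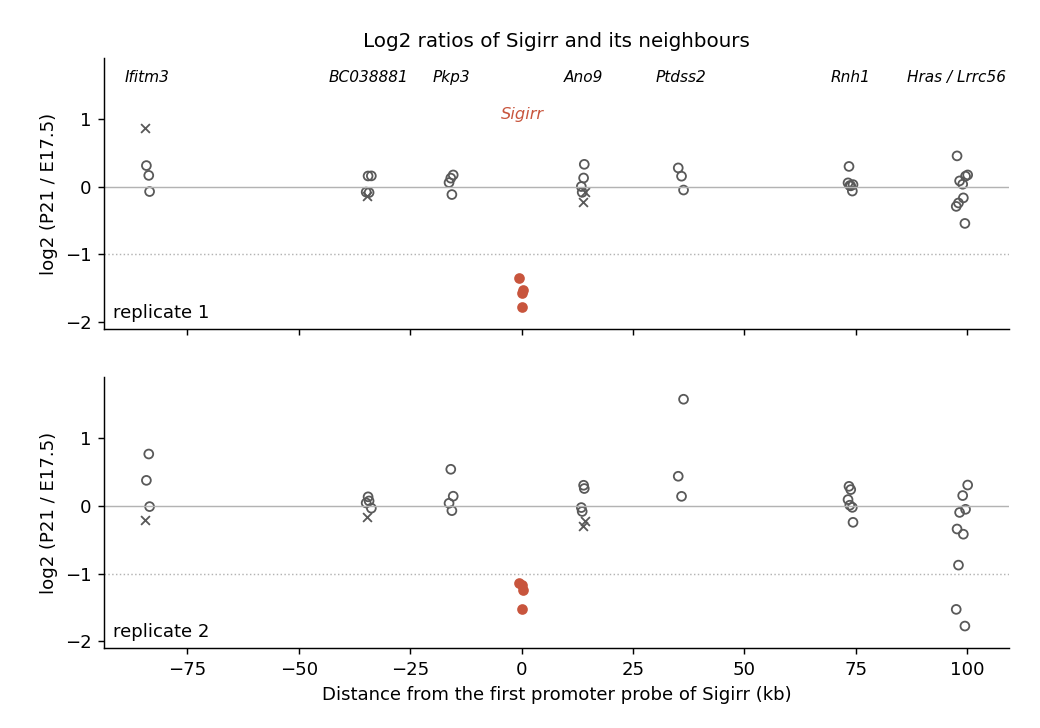
Log2 ratio of P21 over E17.5 against distance (kb) from the first Sigirr promoter probe, in replicate 1 (upper panel) and replicate 2 (lower panel), for Sigirr (red) and neighbouring probes (grey; crosses did not pass the filter on dim probes). Sigirr alone sits below the dotted line at -1 on both arrays, between the near-zero probes of Pkp3 and Ano9, while 2 probes of the Hras and Lrrc56 group fall below it in replicate 2 only.

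The regions whose 4 signals (2 ages on 2 arrays, each centred on the median of its channel, log2 scale) were nearest to those of the Sigirr promoter region were found among 6877 named autosomal regions of the design with at least 2 measured probes. In Euclidean distance the nearest were Olfr368 (1.11), 1190005I06Rik (1.22), Pxn (1.23), the region of Otog and its pair with Ush1c (1.31) and Mamstr (1.70), against a median distance of 10.1. The choice by these signals favours the traits of Sigirr, and all 5 are bright and brighter in replicate 2 than in replicate 1. All 5 are also lower at P21, as Sigirr is, with -0.02 at Otog in replicate 2. Their ratios were smaller than the -1.47 of Sigirr: -1.11 ± 0.16 at Pxn, which encodes the focal adhesion protein paxillin, -0.78 ± 0.35 at the olfactory receptor gene Olfr368 and -0.47 ± 0.33 at Mamstr, a coactivator of MEF2 factors (SD, n = 2 arrays). The ratio at 1190005I06Rik was -0.36 ± 0.22 and that at Otog -0.26 ± 0.34, so that these regions are like Sigirr in brightness more than in the difference between the ages.

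The other genes of the interleukin-1 and Toll-like receptor pathway had ratios on both sides of 0. Of 88 listed genes, 76 were on the arrays and 75 were measured, and limma called 0 of the 75, as it called 0 of all 17617 regions. Each gene, here and in the marker lists below, was given the value of its region with the most measured probes. Over all 90 regions of the pathway list, 0 were called and 0 were at least 2-fold lower on both arrays. An unadjusted p under 0.05 was found for 8 of the 75, of which 3 were lower at P21, beside 11.8% of all regions. The lowest adjusted p in the limma fit was 0.351. Lower on both arrays were 24 of 75 (32%), the same share as among all regions (32%), and 26 were higher on both. The median log2 ratio was 0.02, against -0.00037 over all regions. With normexp the median of the list was -0.02; with all probes used for centring it was 0.13, beside a median of 0.10 over all regions. None of the 75 genes was 2-fold lower on both arrays (0.295% of all regions were). The counts by role stand beside a background of 32% lower and 32.1% higher on both arrays.

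Among the ligands, which start the signal that SIGIRR dampens, and their decoys, 2 of 9 were lower on both arrays and 5 higher, with a median log2 ratio of 0.05. Il33, an alarmin of the interleukin-1 family, had -0.53 ± 0.44 (limma adjusted p = 0.442), or -0.16 with loess and -0.01 with normexp and loess, and Il1b, the inflammatory cytokine IL-1β, had 0.43 ± 0.26 (limma adjusted p = 0.415). With normexp the ratio of Il1b was -0.03, and the median of the group -0.14.

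Among the receptors and co-receptors, only some of which are of the family of SIGIRR, 4 of 18 were lower and 8 higher on both arrays, with a median of 0.08 (-0.03 with normexp). Cd14, the lipopolysaccharide co-receptor, had -0.39 ± 0.29 from 1 probe in a region shared with its pair with Tmco6, and -0.18 with normexp and loess. A further 1-probe region of the pair Cd14-Tmco6 had 0.28 ± 0.03, on the other side of 0 on both arrays. Il1r2, the decoy receptor for interleukin-1, had 0.37 ± 0.18, and 0.09 with normexp. Neither passed the test, with limma adjusted p of 0.434 and 0.402.

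Among the adaptors and kinases, 4 of 18 were lower and 5 higher, with a median of 0.02 (-0.02 with normexp and with loess). Irak1, an X-linked kinase gene of this pathway, had 0.03 in replicate 1 and -1.64 in replicate 2, so that its low mean of -0.81 ± 1.18 rests on 1 array. Peli1, a ubiquitin ligase, had 0.61 ± 0.22 from 1 probe, and -0.16 with normexp. The limma adjusted p was 0.542 for Irak1 and 0.366 for Peli1.

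Among the other inhibitors, the class to which SIGIRR belongs, 4 of 10 were lower and 4 higher on both arrays, with a median of -0.05 (0.35 with normexp, and 0.05 with all probes used for centring, which is below that shift of all regions). Cyld, a deubiquitinase that limits NF-κB activity, came nearest to Sigirr, with -0.75 and -1.23 and a mean of -0.99 ± 0.34 (limma adjusted p = 0.364), or -0.55 with normexp. Dok2, an adaptor that limits signalling, had 0.56 ± 0.05 (limma adjusted p = 0.351). Cyld had 1 array beyond 2-fold, where both Sigirr regions had 2. Sigirr was chosen by this ratio, so nothing is read from that difference. With normexp each Sigirr region had only 1 array beyond 2-fold, at -1.33 and -0.79 for the promoter region and -1.07 and -0.60 for the inside region. The means were then -1.06 and -0.84, beside -0.55 at Cyld, whose separate arrays were not compared under normexp.

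Among the downstream genes, 10 of 20 were lower and 4 higher on both arrays, with a median of -0.03 (-0.10 with normexp, and 0.07 with all probes used for centring, likewise below the shift of all regions). Nfkbib, which encodes an inhibitor of NF-κB, had -0.47 ± 0.07 in a region shared with its pair with Sirt2 (limma adjusted p = 0.364), and -0.23 with normexp. Rela, a subunit of NF-κB, had 0.25 ± 0.43 (limma adjusted p = 0.587), and 0.09 with normexp and loess.

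**Figure D4:**
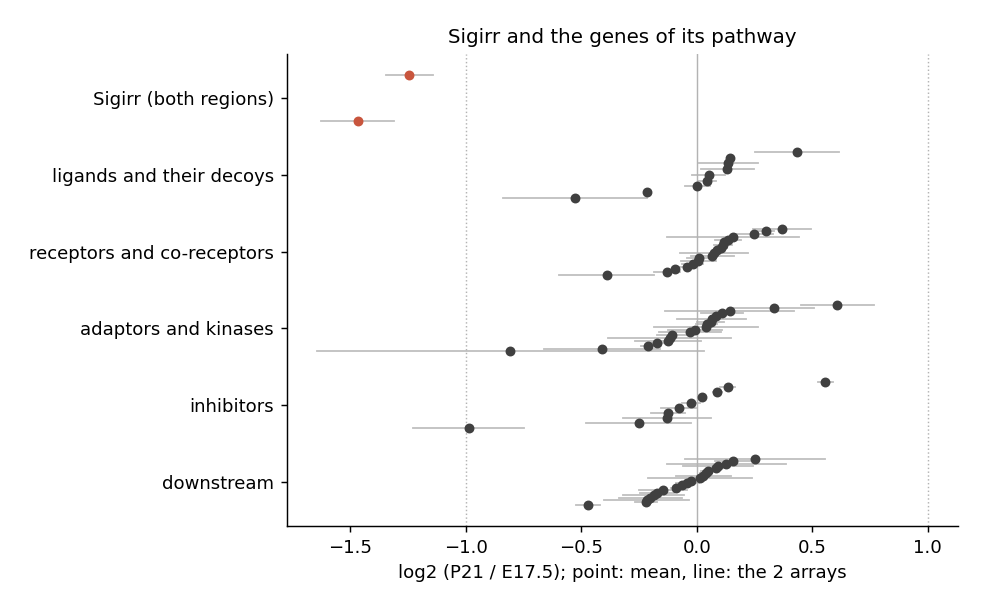
Log2 ratio of P21 over E17.5 (horizontal) of both Sigirr regions (red) and of 75 measured genes of the interleukin-1 and Toll-like receptor pathway by role (black); points are means and lines join the 2 arrays. Each pathway gene is shown by its region with the most measured probes. Both Sigirr regions, chosen by this ratio, lie left of the dotted line at -1 over their whole line, and no pathway gene does.

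Expression markers cannot check the tissue on DNA arrays, and only the ratios at those genes can be given beside Sigirr. Of 20 hepatocyte genes 16 were measured, with a median log2 ratio of 0.03 (-0.06 with normexp), and all 24 genes of fetal liver blood cells were measured, with a median of 0.05 (-0.05 with normexp). In the limma fit 0 of these 40 genes were called (0% of all regions) and 6 had an unadjusted p under 0.05 (11.8% of all regions). Among the hepatocyte genes 4 were lower and 6 higher on both arrays, and among the blood cell genes 4 were lower and 14 higher, beside 32% and 32.1% of all regions. The highest mean of the hepatocyte genes was at Onecut1, a liver transcription factor gene (1.49 and 1.31). Their lowest was at Trf, the transferrin gene (-1.31 and -0.85). Of the blood cell genes, Csf1r had the highest mean (0.47 and 1.31) and Epor the lowest (-1.22 and -0.19). All of these genes were named after their values were seen. Their part in the Sigirr ratio was not tested.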

How the data were processed

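Both ages share an array, and the 2 samples of an array have identical deposited scanner tables, of which 1 was used. The probe intensity values are the processed signals of Agilent Feature Extraction (versions 9.1.1.1 and 9.1.3.1 per the file headers), already background-subtracted and dye-normalised by the authors' scanner software. The deposited log10 ratio column was used to check dye direction, and the series value tables, which hold the processed signal of each age within 0.5% of the scanner values, as an alternative. Flags for background, saturation and outliers were used as deposited.

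A probe was kept if it was no control, had no outlier flag and, on each array, stood well above background in one channel or both. Each array's log2 ratios were centred on the median of the remaining probes (medians before centring -0.0021 to 0.025). Probes no more than 500 bp apart formed a region, averaged over its measured probes. Regions were tested in limma 3.58.1 (R 4.3.3, lmFit and eBayes, the mean ratio against 0) with Benjamini-Hochberg adjustment over 17617 regions. Calls needed an adjusted p under 0.05, a 2-fold difference and 1 sign on both arrays. The fit was checked on simulated data with independent noise and changes larger than those at Sigirr, and not at the size seen there. P-values rest on the spread between the 2 biological replicates of the labels, which eBayes draws toward a variance shared by all regions. A p-value therefore does not measure how closely the 2 arrays matched at that region alone. Both ages lie on the same array, so the array is the block; the deviations of its 2 channels from the age means correlated at 0.70 over regions.

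The SD of the ratios on the first design was 0.30 in replicate 1 and 0.45 in replicate 2, and 69.6% to 77.1% of its probes were well above background. Only 2 arrays per region limit the precision. Old gene names were updated through RefSeq (GRCm38.p6): 11571 names were current, 3916 were updated, 991 were pairs, 594 were unmatched and 2284 were coordinates. No RefSeq coordinates were used.

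Sigirr, the gene lists and the tests were chosen with earlier results of these data known. Named are Sigirr, all genes within 100 kb and the 5 regions most like Sigirr. Of each pathway role, the 2 members with the largest ratio in size are named. Pbld1, Fzd6, Fam184b and the marker genes given singly were named after their values were seen. Alternatives changed the background correction, centring, filter, region gap, variance model, replicates and chromosomes used. Sequences of Sigirr and of its probes were not used here.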

Additional observations from a re-analysis of the deposited data

How the results depend on the processing

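All 4 Sigirr probes were below 0 on every array used, under each of the 18 settings tried. The promoter region moved by less than its SD in 17 of 18 settings and the inside region in 16 of 18. These counts include settings that cannot move a region mean: the variance model, the replicate block, the first design alone and autosomes alone. Leaving out 1 of 2 replicates always moves the mean by less than the SD. Background correction by normexp gave the smallest ratios, -1.06 at the promoter region and -0.84 at the inside region, with 61 called regions over all genes in place of 0; none of them was a neighbour of Sigirr or a gene of the pathway list. With normexp the inside probe and the second and the third promoter probe fell short of 2-fold in replicate 2 (-0.60, -0.61 and -0.73). Normexp followed by loess gave 2 called regions, and centring on all probes, an alternative chosen after seeing the data, gave 1. A region gap of 1000 bp joined the 4 probes into 1 region, at -1.41. The cause of these differences in called regions was not tested. Leaving out 1 replicate in turn gave -1.63 to -1.31 at the promoter region and -1.35 to -1.14 at the inside region. A fit without the array as a replicate block, which ignores the pairing of the ages, also called 0 regions. By construction it kept the promoter region at -1.47 and the inside region at -1.25.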
